A study of Mus musculus with 70 samples.

Results

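Egr1, Egr2, Egr3, Egr4, Nr4a1, Nr4a2 and Nr4a3 are 7 of the 24346 genes in the deposited table of dorsal hippocampal expression, and were taken from it by their symbols. The members were selected on a value in these data as well as on their family: Egr1 was already known as the gene of smallest p in the comparison of 14-7-2 with sedentary mice when the set was drawn up. Differences of all members in the 14-7-2 comparisons, and of Egr1 in every comparison with sedentary, are therefore given as descriptions with no p-value. The p-values of the other members against sedentary use the same sedentary libraries, so they are not independent of that choice. The study asked how patterns of voluntary wheel running act on gene expression while a memory is consolidated, and profiled adult male C57BL/6J mice, housed singly, 1 h after a 3 min training session in the object location memory (OLM) task that is too short to leave a lasting memory on its own.

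Each of the 7 groups held 10 libraries, 70 in all. A group name gives the days of first exercise, of sedentary delay and of reactivating exercise. Home cage mice (0-0-0) had no wheel and no OLM training. Sedentary mice (also 0-0-0) had no wheel and were trained. The 14-0-0 mice ran for 14 days, the 14-7-0 mice then had a delay of 7 days, the 14-14-0 mice had a delay of 14 days, the 14-7-2 mice ran for 2 more days after the delay of 7 days, and the 0-0-2 mice ran for 2 days only. The 5 exercise groups were all trained. Trained mice had been handled and habituated to the training chambers beforehand, and whether home cage mice had been is not given in the sources used here. Each group was split evenly over 2 harvest cohorts, which the labels number 1 and 2. In whole tissue, fewer cells of a type and less RNA per cell cannot be told apart.

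EGR proteins are zinc finger transcription factors that bind GC-rich sites, and NR4A proteins are orphan nuclear receptors that act without a known natural ligand. Both families are immediate early genes: their transcription starts within minutes of neuronal activity through transcription factors that are already in the cell, among them CREB, which binds the cyclic AMP response element (CRE), and serum response factor (SRF), which binds the serum response element (SRE). In the hippocampus Egr1 is widely used as a marker of recent neuronal activity, and NR4A function is needed for long-term contextual and object location memory.

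Promoters of Egr2, Egr4, Nr4a1, Nr4a2 and Nr4a3 were searched in RefSeq (GRCm38.p6, the same assembly as mm10), as windows of 250 bases before to 50 bases after a transcript start. Egr1 and Egr3 were not searched. The Nr4a1, Nr4a3 and Egr2 windows printed here belong to transcripts that start inside the span of the GENCODE gene, downstream of its first start. The promoters of Nr4a1, Nr4a2 and Nr4a3 each held 4 copies of TGACG (on either strand), the core of a CRE, a number that 0.231% of all 32851 promoters reached. The Egr2 window printed here held 2 copies of TGACG and 1 SRE core, which stood in 1.63% of all promoters, and the single Egr4 window (chr6:85513540-85513839, minus strand) held 2 copies of TGACG and no SRE core. At least 1 copy of TGACG stood in 20.8% of all promoters. The full CRE (TGACGTCA, which contains TGACG, in 1.79% of promoters), the EGR site (GCGTGGGCG, 0.612%) and the NBRE to which NR4A monomers bind (AAAGGTCA, 1.51%) were in none of the windows of these 5 members, both strands read. The 4 windows below are shown because they are those of the NR4A family and 1 of Egr2 with both kinds of element, written 5′ to 3′ along the gene with copies of TGACG (or CGTCA, its reverse complement) and the SRE core in capitals. Of the 5 Egr2 windows, 3 held both elements, 1 held the SRE core alone and 1 held neither, and the one with the lowest start among the 3 is printed.
Nr4a1 (chr15:101266596-101266895, plus strand): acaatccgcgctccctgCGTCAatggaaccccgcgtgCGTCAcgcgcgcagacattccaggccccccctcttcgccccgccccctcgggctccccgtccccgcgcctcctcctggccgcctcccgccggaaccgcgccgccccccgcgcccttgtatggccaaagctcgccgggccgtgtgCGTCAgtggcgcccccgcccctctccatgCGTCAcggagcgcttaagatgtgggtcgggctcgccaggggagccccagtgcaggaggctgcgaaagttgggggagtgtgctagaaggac
Nr4a2 (chr2:57123954-57124253, minus strand): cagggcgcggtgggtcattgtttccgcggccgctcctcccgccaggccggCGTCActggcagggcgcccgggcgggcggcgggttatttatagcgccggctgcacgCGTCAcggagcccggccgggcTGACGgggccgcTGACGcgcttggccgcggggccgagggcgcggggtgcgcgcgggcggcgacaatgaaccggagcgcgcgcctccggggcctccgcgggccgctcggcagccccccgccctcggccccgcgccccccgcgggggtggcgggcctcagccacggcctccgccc
Nr4a3 (chr4:48045055-48045354, plus strand): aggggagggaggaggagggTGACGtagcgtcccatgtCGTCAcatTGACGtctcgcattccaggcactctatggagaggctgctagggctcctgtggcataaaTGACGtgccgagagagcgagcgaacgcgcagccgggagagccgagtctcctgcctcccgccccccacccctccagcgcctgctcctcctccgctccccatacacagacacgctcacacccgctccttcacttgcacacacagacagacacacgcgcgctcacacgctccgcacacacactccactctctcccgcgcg
Egr2 (chr10:67537619-67537918, plus strand): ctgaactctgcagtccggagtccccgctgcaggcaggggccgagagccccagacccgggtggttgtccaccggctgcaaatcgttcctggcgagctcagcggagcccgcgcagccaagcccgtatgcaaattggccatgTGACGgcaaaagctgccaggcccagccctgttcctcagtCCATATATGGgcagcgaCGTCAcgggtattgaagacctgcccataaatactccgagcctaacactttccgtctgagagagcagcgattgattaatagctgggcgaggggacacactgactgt

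A pair of libraries stood apart and bear on what follows. The library labelled sedentary replicate 6 had 2.45 FPKM (fragments scaled to gene length and library size, a level per length) of Neurod6, a transcription factor of pyramidal neurons, where the other 9 sedentary libraries had 166 ± 30.9 (SD). Its summed level of 4 dentate granule markers was 4.35 FPKM against a sedentary median of 79.0, and its oligodendrocyte markers summed to 6153 FPKM against 2722. Its thalamic markers summed to 101.7 FPKM against 28.9, but Prkcd made up 90.9 of this. Tcf7l2 (2.04 FPKM) and Rgs16 (4.81) lay above their means over the 70 libraries (1.28 and 2.90), and Lef1 (1.22) and Ramp3 (2.77) under theirs (1.65 and 4.60). A 14-7-2 library reached a thalamic sum of 106.8 FPKM. Among inhibitory neuron markers, Gad1 (279 FPKM) and Gad2 (139) were at their highest of the 70 libraries and Pvalb (19.9) at its lowest. The library labelled 14-7-0 replicate 4 listed 10279 genes at 0 FPKM, where the other 69 libraries listed 6243 to 7199, so its low values are the least certain. The granule cell and both pyramidal cell marker lists were above 0 in all 70 libraries. The table holds no read counts, so no counting error can be given.

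Within the 7 genes, levels differed far more than between groups. Egr1 had the highest mean over the 70 libraries with 53.6 FPKM, followed by Egr3 with 33.9, Nr4a1 with 28.5, Nr4a3 with 21.5, Nr4a2 with 15.5, Egr4 with 5.17 and Egr2 with 0.981 FPKM. Egr1 was above Egr3 in 70 of 70 libraries and Egr4 above Egr2 in 70 of 70. The middle of the order was less fixed: Egr3 exceeded Nr4a1 in 54 libraries, Nr4a1 exceeded Nr4a3 in 57, and Nr4a3 exceeded Nr4a2 in 63. When the 7 groups were ordered by the mean of each gene, no pair of neighbouring groups differed by more than the larger of their SDs, for any member. Neighbours in an order of 7 are close by construction, so no likeness of the groups is read from this. Groups farther apart in the order could differ by more, as Egr1 did with 71.3 ± 19.9 FPKM (SD) in sedentary and 43.7 ± 7.08 in 14-7-2.

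**Figure D1:**
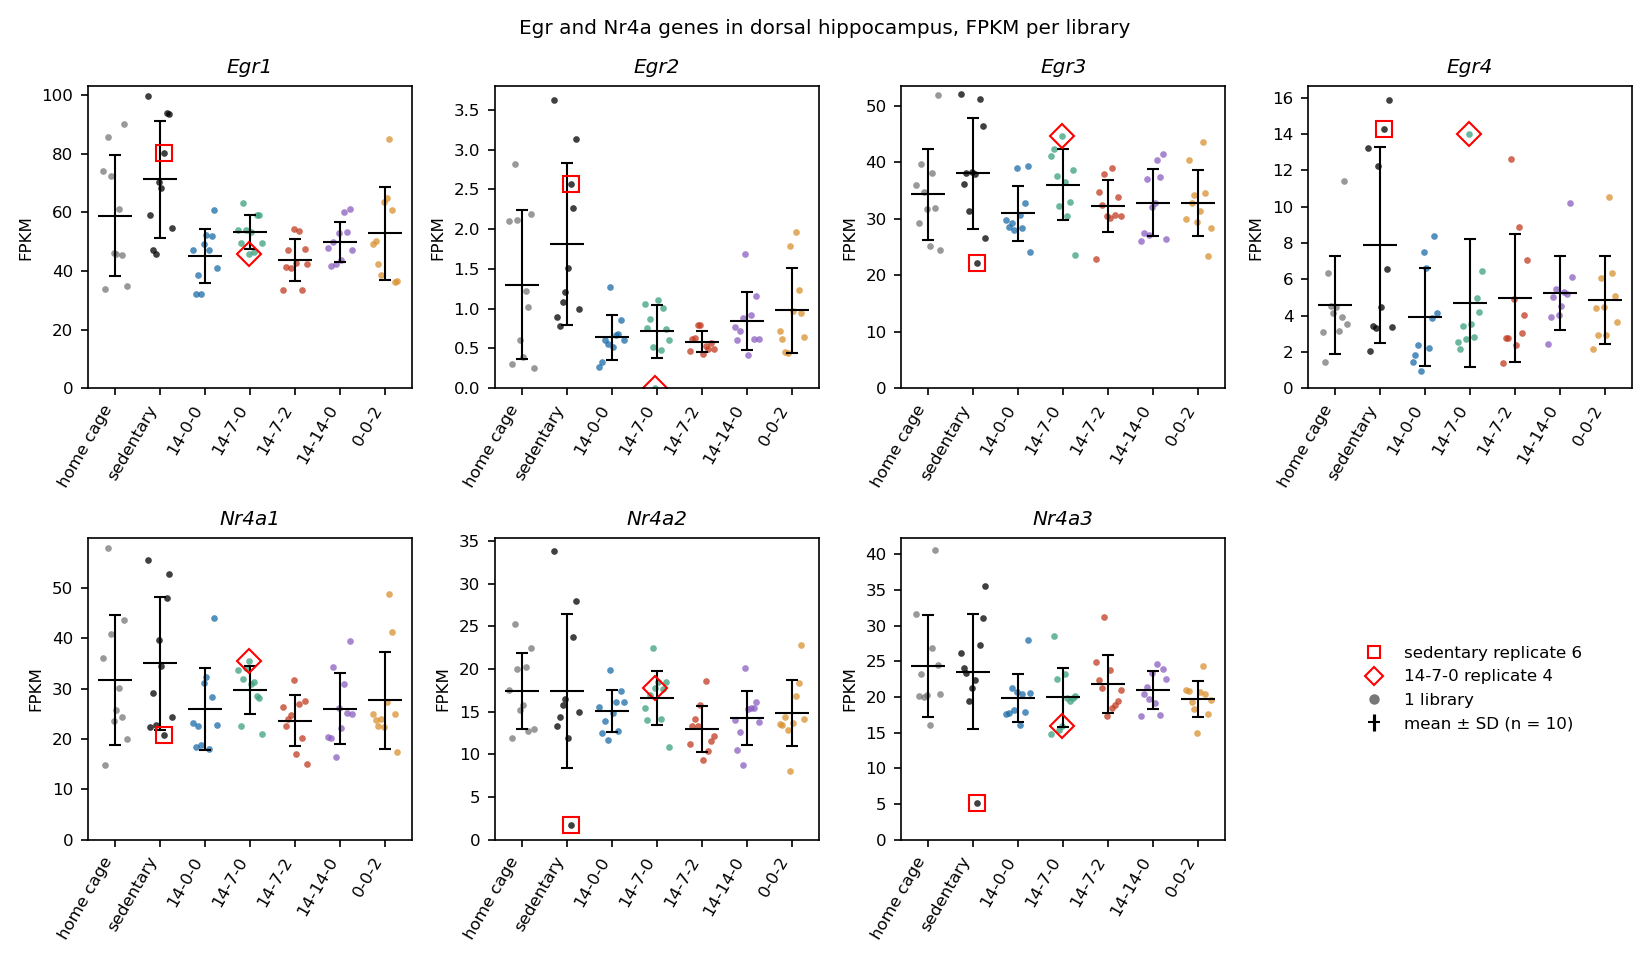
FPKM (y axis, linear, from 0) of each member in every library by group (x axis); dots are libraries and bars are the mean ± SD of 10 libraries. For Egr1 and Egr2 the sedentary libraries reach highest, and a red square marks sedentary replicate 6, at 1.75 FPKM of Nr4a2 and 5.11 FPKM of Nr4a3, and a red diamond 14-7-0 replicate 4.

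Egr1 (chr18:34859823-34864984, plus strand, GENCODE M21) was highest in sedentary mice, and its sedentary libraries ran from 45.9 to 99.7 FPKM with a median of 69.4. Home cage libraries ran from 33.8 to 90.2 FPKM with a median of 53.6. The 14-0-0 libraries ran from 32.1 to 60.7 FPKM with a median of 47.0. In the 14-0-0, 14-7-0 and 14-14-0 groups, 10 of 10 libraries lay under the sedentary median, as did 9 of 10 in 0-0-2 and 6 of 10 in home cage.

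After a delay of 7 days Egr1 ran from 45.6 to 63.0 FPKM (14-7-0), and after 14 days from 41.6 to 61.2 (14-14-0). The 14-7-2 libraries ran from 33.6 to 54.2 FPKM with a median of 42.4, the lowest median of the 7. The 0-0-2 libraries spread over 36.1 to 85.2 FPKM. Every group overlapped the sedentary range, whose lowest library was above 6 of 10 libraries of 14-7-2, 4 of 10 of 14-0-0, of 0-0-2 and of home cage, 3 of 10 of 14-14-0 and 1 of 10 of 14-7-0.

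As differences of log2(FPKM + 0.1) from sedentary, Egr1 stood at -0.67 (SE 0.144) in 14-7-2, -0.63 (SE 0.154) in 14-0-0, -0.47 (SE 0.137) in 14-14-0, -0.43 (SE 0.175) in 0-0-2, -0.37 (SE 0.133) in 14-7-0 and -0.30 (SE 0.198) in home cage, with 10 libraries a group. Leaving out sedentary replicate 6, whose Egr1 level of 80.3 FPKM was inside the range of the others, gave -0.65, -0.61, -0.44, -0.41, -0.35 and -0.28 in the same order. All 6 differences rest on the same 10 sedentary libraries, so they are not independent of each other or of the value by which Egr1 was known. Measured from home cage, the other group without a wheel, Egr1 stood at -0.37 (SE 0.170) in 14-7-2, -0.33 (SE 0.179) in 14-0-0, -0.17 (SE 0.165) in 14-14-0, -0.13 (SE 0.197) in 0-0-2 and -0.07 (SE 0.161) in 14-7-0.

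Egr2 (chr10:67535475-67542188, plus strand), best known in the hindbrain and in myelinating Schwann cells and induced by activity in neurons, showed the largest differences from sedentary at the lowest level. Sedentary libraries ran from 0.778 to 3.62 FPKM with a median of 1.36. Home cage libraries ran from 0.255 to 2.82 FPKM with a median of 1.12. The 14-0-0 libraries ran from 0.271 to 1.28 FPKM with a median of 0.606, and all 10 lay under the sedentary median.

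Egr2 ran from 0.433 to 0.799 FPKM in 14-7-2, the narrowest range of any group. It ran from 0.416 to 1.69 FPKM in 14-14-0 and from 0.444 to 1.97 in 0-0-2. In 14-7-0 it was listed at 0 in replicate 4, and the median was 0.750 FPKM with a highest library of 1.11. Exercise groups and sedentary overlapped in each case, with 8 of 10 libraries of 14-0-0 and of 14-7-2 under the lowest sedentary library.

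The mean of Egr2 over all libraries fell just under the minimum of 1 FPKM set for testing, with Egr4 the next member above it, so Egr2 was tested with limma in a fit of the 16083 genes whose mean reached 0.1 FPKM. A gene was called at an unadjusted p under 0.05. Egr2 was lower in 14-0-0 (log2 difference -1.28, SE 0.278, p = 0.000168, adjusted p = 0.248), where 9.74% of all genes were called. It was lower in 14-7-0 (-1.27, SE 0.387, p = 0.00362, adjusted p = 0.961, with 3.48% of genes called), and without 14-7-0 replicate 4 the difference was -0.96. It was lower in 14-14-0 (-0.92, SE 0.273, p = 0.0029, adjusted p = 0.741, with 6.14% called) and in 0-0-2 (-0.79, SE 0.303, p = 0.0168, adjusted p = 1, with 2.72% called).

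In home cage the Egr2 difference of -0.63 (SE 0.407, p = 0.138, with 3.06% of genes called) was not called. In 14-7-2 it stood at -1.32 (SE 0.241). None of the Egr2 differences passed limma with Benjamini-Hochberg adjustment over all genes. Within home cage and sedentary, Egr2 varied with Egr1 (r = 0.94). The sedentary libraries are those by which Egr1 was known, so the Egr2 p-values are not independent of that value. The calls in 14-0-0, 14-7-0, 14-14-0 and 0-0-2 were also made without sedentary replicate 6, at -1.20, -1.20, -0.85 and -0.71.

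Egr3 (chr14:70077203-70082614, plus strand), which encodes a factor required for muscle spindle development and induced with Egr1 in neurons, differed less between groups. Its sedentary libraries ran from 22.1 to 52.0 FPKM with a median of 38.0, and the lowest of these was replicate 6. Group medians of the exercise groups lay between 29.5 FPKM (14-0-0) and 37.0 FPKM (14-7-0). The log2 differences from sedentary were -0.26 (SE 0.136, p = 0.0653) in 14-0-0, -0.19 in 14-14-0 and in 0-0-2, -0.21 in 14-7-2, -0.05 in 14-7-0 and -0.13 in home cage. None of those with a test was called in the limma fits of 2 groups. In a limma fit of all 7 groups together Egr3 was called lower in 14-0-0 (p = 0.0375). Without replicate 6, Egr3 was called lower in 14-0-0 (-0.35, p = 0.00805), 0-0-2 (-0.27, p = 0.0434) and 14-14-0 (-0.27, p = 0.0458).

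Egr4 (chr6:85511121-85513589, minus strand), a member best known for its role in spermatogenesis and also induced by neuronal activity, was the most variable member between libraries of a group. Sedentary libraries ran from 2.07 to 15.9 FPKM with a median of 5.53. The 14-0-0 libraries ran from 0.944 to 8.40 FPKM with a median of 3.13. In 14-7-0 the highest library was replicate 4 with 14.0 FPKM, and the next one had 6.48. Egr4 was lower in 14-0-0 than in sedentary (log2 difference -0.97, SE 0.44, limma p = 0.0396, adjusted p = 0.517), and this call ended without sedentary replicate 6 (-0.84, p = 0.0741). In the limma fits of 2 groups with all libraries, the call in 14-0-0 was the only one among those with a test, the differences being -0.61 in home cage, -0.64 in 14-7-0, -0.60 in 14-7-2, -0.33 in 14-14-0 and -0.49 in 0-0-2. Without 14-7-0 replicate 4, Egr4 was also called lower in 14-7-0 (-0.84, p = 0.0322).

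Nr4a1 (chr15:101254269-101274795, plus strand), also known as Nur77, had sedentary libraries from 20.7 to 55.6 FPKM with a median of 31.8. Home cage libraries ran from 14.8 to 57.8 FPKM with a median of 27.9. The 14-7-2 libraries ran from 15.0 to 31.7 FPKM with a median of 24.4, and all 10 lay under the sedentary median. The log2 difference of 14-7-2 from sedentary was -0.51 (SE 0.191).

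In the other exercise groups Nr4a1 differed from sedentary by -0.39 (SE 0.204, p = 0.0677) in 14-0-0, -0.38 (SE 0.199, p = 0.0698) in 14-14-0, -0.31 (SE 0.208, p = 0.154) in 0-0-2 and -0.16 (SE 0.179, p = 0.385) in 14-7-0, and in home cage by -0.16 (SE 0.237, p = 0.52). The limma fits of 2 groups called none of these, and the fit of all 7 groups together called Nr4a1 lower in 14-0-0 (p = 0.042) and 14-14-0 (p = 0.0497). Without sedentary replicate 6, the lowest sedentary library, Nr4a1 was called in 14-0-0 (-0.47, p = 0.0313) and in 14-14-0 (-0.45, p = 0.0311).

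Nr4a2 (chr2:57106830-57124003, minus strand), also known as Nurr1 and needed for midbrain dopamine neurons, rested on a single library more than any other member. Sedentary replicate 6 had 1.75 FPKM, and the other 9 sedentary libraries ran from 11.9 to 33.8 FPKM with a mean of 19.1 ± 7.56 (SD). Home cage libraries ran from 11.9 to 25.2 FPKM, and 14-7-2 libraries from 9.28 to 18.5. With all 10 sedentary libraries the log2 differences were 0.24 in home cage, 0.06 in 14-0-0, 0.19 in 14-7-0, -0.17 in 14-7-2, -0.04 in 14-14-0 and 0.0042 in 0-0-2, with SEs from 0.349 to 0.361. Without replicate 6 they became -0.09, -0.27, -0.14, -0.50, -0.37 and -0.33 in that order. Neither fit called any of those with a test.

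Nr4a3 (chr4:48045153-48086447, plus strand), also known as Nor1, showed the same dependence. Sedentary replicate 6 had 5.11 FPKM, and the other 9 ran from 19.5 to 35.6 FPKM with a mean of 25.6 ± 5.09 (SD). Group means of the exercise groups lay between 19.7 ± 2.47 FPKM (SD, 0-0-2) and 21.9 ± 4.07 FPKM (14-7-2), and home cage was at 24.4 ± 7.16. With all sedentary libraries no group was called, and the log2 differences lay between -0.14 (0-0-2) and 0.13 (home cage).

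Without replicate 6, limma called Nr4a3 lower in 0-0-2 (-0.36, SE 0.102, p = 0.00194), 14-0-0 (-0.36, SE 0.108, p = 0.00354), 14-7-0 (-0.36, SE 0.124, p = 0.00867) and 14-14-0 (-0.27, SE 0.101, p = 0.0135), and not in home cage (-0.10, p = 0.517). The difference of 14-7-2 was then -0.22 (SE 0.114).

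Over the 5 members whose mean reached 1 FPKM and whose value was not known beforehand (Egr3, Egr4, Nr4a1, Nr4a2 and Nr4a3), limma called 0 of 5 in home cage, where it called 2.3% of 12994 genes. In 14-0-0 it called 1 of 5, beside 9.15% of all genes. It called 0 of 5 in 14-7-0 (3.26% of all genes), 0 of 5 in 14-14-0 (4.95%) and 0 of 5 in 0-0-2 (2.37%). Without sedentary replicate 6 the counts were 0, 3, 1, 3 and 2 of 5, beside 3.15%, 10.3%, 3.29%, 6.97% and 2.52% of all genes. The members' median log2 differences, Egr1 included, were -0.14 in home cage, -0.33 in 14-0-0, -0.15 in 14-7-0, -0.36 in 14-7-2, -0.26 in 14-14-0 and -0.25 in 0-0-2, while the medians of all genes lay between -0.01 and 0.01.

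**Figure D2:**
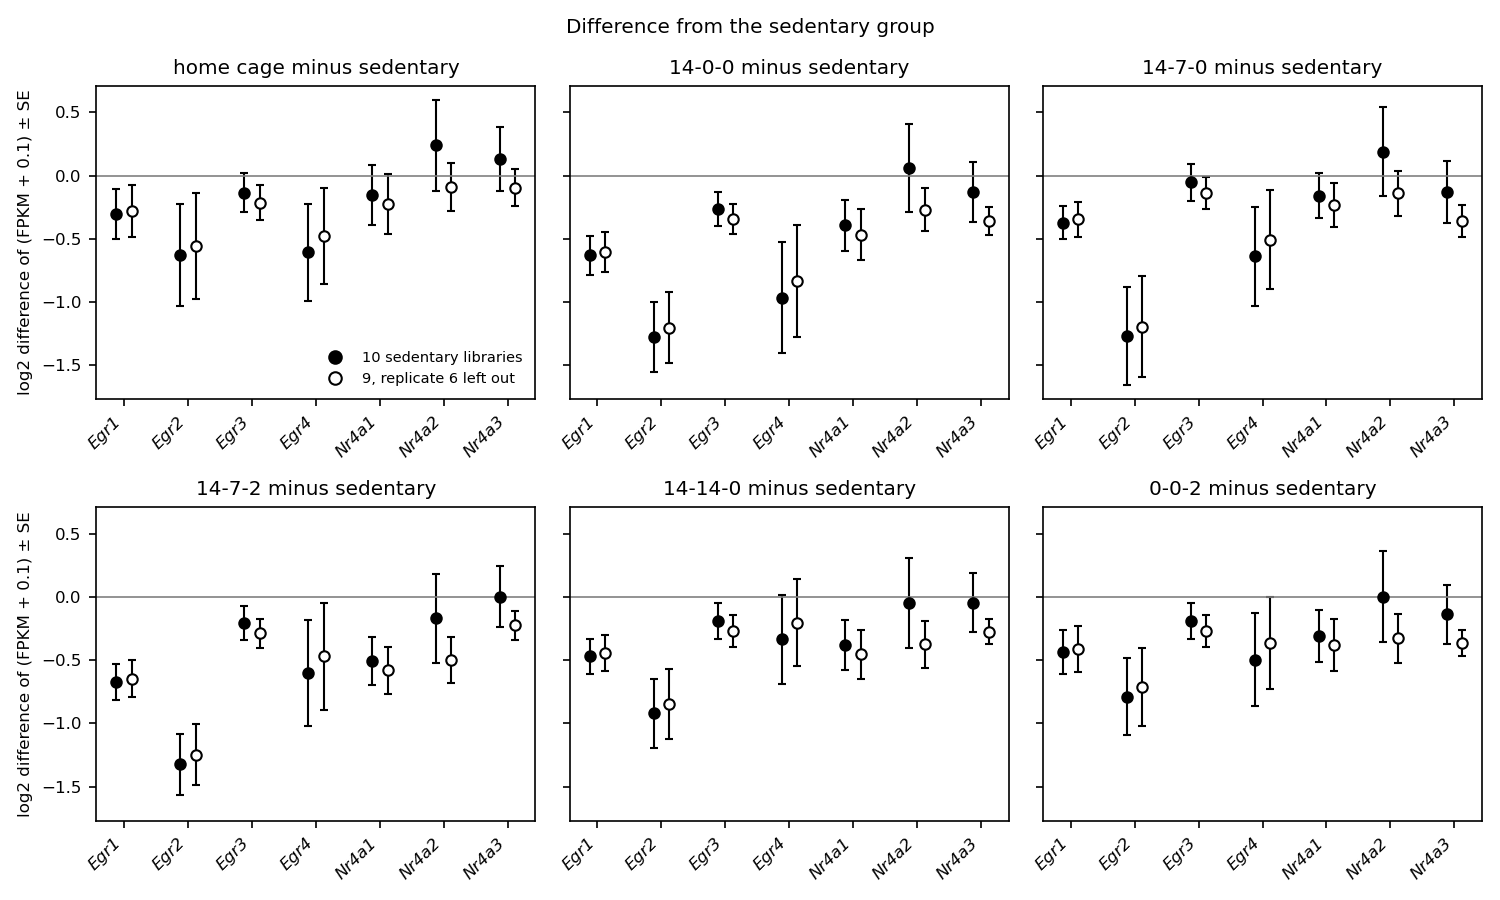
Difference of each group from sedentary in log2(FPKM + 0.1) (y axis, bars ± SE) for the 7 members (x axis). Filled points use 10 sedentary libraries and open points 9, with replicate 6 left out. Leaving it out lowers the points of Nr4a2 and Nr4a3 in every panel, for Nr4a2 in home cage from 0.24 to -0.09, and raises those of Egr4.

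The comparison of sedentary with home cage asks what the training session did without exercise, together with any difference in earlier handling and habituation. No member was called in it, as given above, and in the 6 trained groups together against home cage limma called 0 of the 5 members other than Egr1, beside 3.59% of all genes. Of these 6 groups 5 had also run, so that contrast mixes training with running. Egr1 has no test here either, since the trained groups include both groups of the comparison it was known from. In that contrast the differences were -0.13 (SE 0.115) for Egr1, -0.14 (SE 0.145, p = 0.352) for Nr4a1, -0.23 (SE 0.176, p = 0.192) for Nr4a2, -0.21 (SE 0.126, p = 0.109) for Nr4a3, -0.02 (SE 0.095, p = 0.875) for Egr3 and 0.10 (SE 0.28, p = 0.72) for Egr4. All 6 differences were under 2 times their SE.

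The last 2 days of running in 14-7-2 can be set against 14-7-0, which shares the first 14 days and the delay of 7 days. Egr1 was at 43.7 ± 7.08 FPKM (SD, n = 10) in 14-7-2 and at 53.4 ± 5.77 in 14-7-0, a log2 difference of -0.30 (SE 0.0868). Nr4a1 was at 23.6 ± 5.09 and 29.8 ± 4.81 FPKM (-0.35, SE 0.126), and Nr4a2 at 13.0 ± 2.73 and 16.6 ± 3.19 FPKM (-0.36, SE 0.124). Egr3 differed by -0.15 (SE 0.105), Egr4 by 0.04 (SE 0.365) and Nr4a3 by 0.14 (SE 0.116). Against 0-0-2, which had only the last 2 days, 14-7-2 differed by -0.24 (SE 0.143) for Egr1, -0.20 (SE 0.165) for Nr4a1 and -0.17 (SE 0.146) for Nr4a2. Sedentary libraries enter neither comparison. All 3 CA1 pyramidal cell markers were lower in 14-7-2 than in 14-7-0 (median log2 difference -0.34) and all 3 CA3 pyramidal cell markers higher (median 0.43), and against 0-0-2 the medians were -0.18 and 0.32. Their part in the differences of Egr1, Nr4a1 and Nr4a2 was not tested.

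The members also differed in how far libraries of a group lay from each other. The pooled within-group SD of log2 values was 0.342 for Egr1, 0.434 for Nr4a1, 0.527 for Nr4a2, 0.76 for Egr2 and 0.838 for Egr4, against a median of 0.217 over all genes tested. Egr4 had a larger SD than 97.5% of the genes tested, and Egr3, at 0.283 the steadiest member, than 68.1%. In the groups without a wheel, home cage and sedentary, Egr1 had an SD of 0.468 and in the 5 exercise groups 0.276, a ratio of 1.70.

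The same ratio was 1.52 for Nr4a1, 1.47 for Egr2, 1.46 for Egr3 and 1.13 for Egr4. For Nr4a2 and Nr4a3 it was 2.74 and 2.64, and without sedentary replicate 6 it was 1.42 and 1.47. Over all genes tested the median of this ratio was 1.06, and 0.959 without replicate 6. The pooled SD of all 7 members was thus larger in the groups without a wheel, with and without that library, but single groups did not all follow. The SD of Egr1 was 0.413 both in 0-0-2 and in sedentary, that of Egr4 was 1.03 in 14-0-0 against 0.738 in home cage, and that of Egr2 was 1.05 in 14-7-0, which includes the library listed at 0, against 0.752 in sedentary. These are descriptions with no test.

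**Figure D3:**
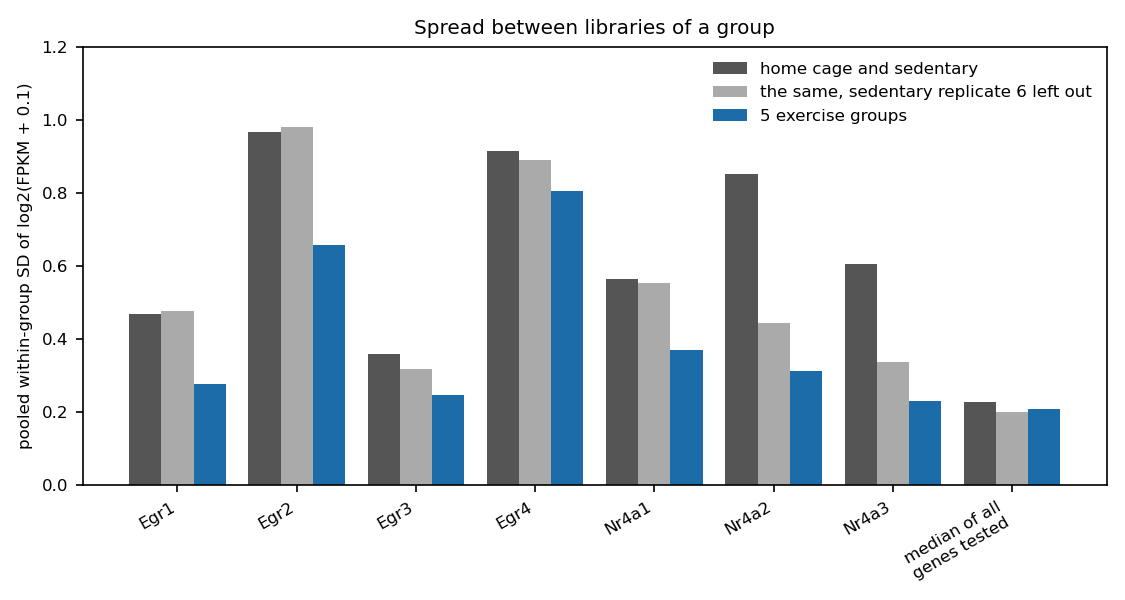
Pooled within-group SD of log2(FPKM + 0.1) (y axis, bars from 0) of each member and the median over all genes tested (x axis), in home cage and sedentary, in the same without sedentary replicate 6, and in the 5 exercise groups. For Egr1 the bars stand at 0.468, 0.478 and 0.276.

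Between mice of a group, several members varied together. Correlations were computed over 70 libraries after the mean of each group within each cohort was subtracted, for all 21 pairs, with permutation tests (100000 permutations within group and cohort). Both genes of a pair are read from the same library and so share its depth and its mix of tissue. Egr1 and Nr4a1 had Pearson r = 0.76 and Spearman rho = 0.73 (permutation p = 1e-05 for both, the smallest that can be reached, 4.2e-05 after Benjamini-Hochberg adjustment over the 21 pairs). The r was 0.72 without the 2 libraries farthest from the median, 0.78 in cohort 1 and 0.75 in cohort 2.

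Egr1 and Egr2 had r = 0.74 and rho = 0.74 (permutation p = 1e-05, adjusted 4.2e-05), with r = 0.73 in cohort 1, 0.80 in cohort 2 and 0.69 without the 2 farthest libraries. Egr3 and Nr4a1 had r = 0.72 and rho = 0.73 (permutation p = 1e-05, adjusted 4.2e-05), with 0.57 in cohort 1, 0.82 in cohort 2 and 0.68 without the 2 farthest. Within home cage and sedentary alone the r was 0.94 for Egr1 and Egr2 and 0.87 for Egr1 and Nr4a1, and within the exercise groups 0.55 and 0.64.

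Nr4a3 had lower correlations with most members. Its r with Egr3 was 0.44 (rho 0.41, permutation p = 0.00747 and 0.00173, adjusted 0.0121 and 0.00279), with 0.39 in cohort 1, 0.46 in cohort 2 and 0.35 without the 2 farthest libraries. With Egr2 the r was 0.17 (permutation p = 0.241, adjusted 0.275) and the rho 0.32 (permutation p = 0.0156, adjusted 0.0192). Its r with Egr1 was 0.09 (rho 0.19, permutation p = 0.518 and 0.136, adjusted 0.544 and 0.143) and with Egr4 -0.08 (rho 0.0035, permutation p = 0.653 and 0.979, the same after adjustment). The r of 0.59 between Nr4a2 and Nr4a3 (rho 0.22, permutation p = 0.0579 and 0.102, adjusted 0.076 and 0.113) fell to 0.16 without the 2 farthest libraries, so it rested on these, of which sedentary replicate 6 is 1. The r was 0.13 in cohort 1 and 0.73 in cohort 2, which holds that library.

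**Figure D4:**
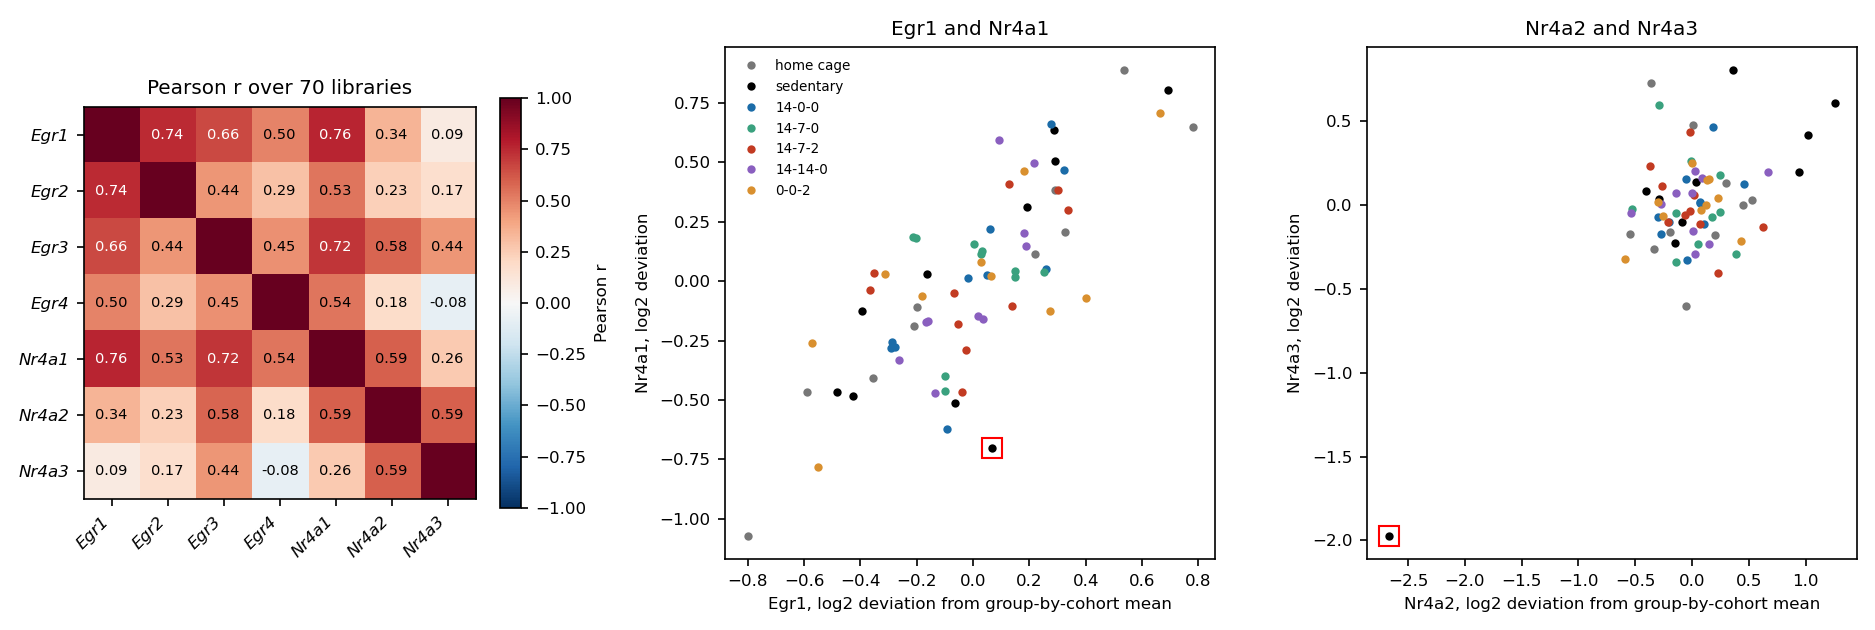
Left, Pearson r of the 21 pairs of members over 70 libraries after group-by-cohort means were removed (colour and number). Middle and right, the log2 deviations of Nr4a1 against Egr1 (r = 0.76) and of Nr4a3 against Nr4a2 (r = 0.59), 1 dot a library coloured by group; the red square, sedentary replicate 6, lies far from all other dots in the right plot.

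The genes closest to each member in this measure, among all genes tested, differed along the same lines. For Nr4a1 and Egr1 the nearest gene was Arc, an immediate early gene whose protein acts on glutamate receptors at synapses, with r = 0.89 and 0.80, followed for both by Sbk1 (0.87 and 0.76). Ptpn1 (0.81) and Mtcl1 (0.75) came next for Nr4a1 and Egr1. Egr3 was nearest to Ski (0.83), Ccdc85a (0.79) and Sipa1l3 (0.79), and Egr2 to Max (0.69), Unc119b (0.68) and Surf6 (0.67). Egr4 was nearest to Mrpl52, which encodes a mitochondrial ribosomal protein (0.92), Irf2bpl (0.92) and Jund (0.92).

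Nr4a2 was nearest to Ankrd33b (0.85), Zfp365 (0.84) and Alox12b (0.84), and Nr4a3 to Kcnv1 (0.89), Cdk14 (0.89) and Sv2b (0.88). These 6 values fell to between 0.57 and 0.77 when sedentary replicate 6 was left out. All are descriptions with no test.

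Between harvest cohorts, Egr4 was the only member called by limma, beside 11.9% of all genes: it was higher in cohort 2, with a mean of 5.82 FPKM against 4.52 (log2 difference 0.49, SE 0.188, p = 0.0119, adjusted p = 0.245). The other 5 tested members differed by -0.03 (Egr3) to 0.12 (Egr1), and none was called.

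Other immediate early genes were called lower than in sedentary more often than higher. All 18 on the list were tested. Limma called 6 lower and none higher in 14-0-0 (9.15% of all genes called). It called 7 lower in 14-7-2 (4.39%), 4 in 14-14-0 (4.95%), 3 in 14-7-0 (3.26%) and 2 in 0-0-2 (2.37%). In home cage (2.3%) it called 1 lower (Per1) and 1 higher (Btg2). Their median log2 differences were -0.34, -0.32, -0.24, -0.23, -0.22 and -0.10 in that order. The comparison of 14-7-2 with sedentary is the one by which Egr1 was known. The lists were also chosen with earlier results known, so calls and values of listed genes in that comparison are descriptions. The other comparisons with sedentary use the same sedentary libraries, and the trained groups include them. Calls and p-values of listed genes there, for this list and those below, are therefore not independent of that choice. Fos, a subunit of the AP-1 factor, stood 1.04 lower in 14-7-2 on the log2 scale. In limma it fell by 0.85 (p = 0.00912) in 14-0-0, by 0.91 (p = 0.00263) in 14-14-0, by 0.74 (p = 0.0109) in 14-7-0 and by 0.69 (p = 0.0246) in 0-0-2. Npas4, a neuronal activity-dependent transcription factor, was called lower in 14-14-0 (-0.80, p = 0.0022), 14-0-0 (-0.60, p = 0.009), 14-7-0 (-0.60, p = 0.0122) and 0-0-2 (-0.54, p = 0.0168), and stood at -0.49 in 14-7-2. Arc was called lower in 14-14-0 (-0.72, p = 0.018) and 14-7-0 (-0.56, p = 0.0486), and stood at -0.81 in 14-7-2. Adjusted p-values of Fos, Npas4 and Arc in these limma fits ran from 0.358 to 1. In the trained groups against home cage, most of which had also run, 6 of the 18 were called lower and none higher (3.59% of all genes called). Btg2 (-0.30, limma p = 0.000926, adjusted p = 0.344) had the smallest p. Without sedentary replicate 6 the counts were 7 lower in 14-0-0 (10.3% of all genes called), 7 in 14-7-2 (3.58%), 4 in 14-14-0 (6.97%), 3 in 14-7-0 (3.29%) and 3 in 0-0-2 (2.52%). In home cage (3.15%) they were 2 lower and 1 higher.

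Of 9 cofactors and partners, 8 were tested. Limma called 1 of 8 lower in 14-0-0 (9.15% of all genes called) and 1 of 8 in 14-14-0 (4.95%). In both it was Nab2, a corepressor that binds EGR proteins and is itself an EGR target. Its limma values were -0.27 (p = 0.0157, adjusted p = 0.399) in 14-0-0 and -0.18 (p = 0.0297, adjusted p = 0.974) in 14-14-0. No other cofactor was called against sedentary in any group. Of 12 upstream kinases and transcription factors, limma called 1 lower in 14-0-0 (9.15% of all genes called) and 1 in 0-0-2 (2.37%). In both it was Crtc2, a CREB coactivator, at -0.23 (p = 0.00781, adjusted p = 0.345) in 14-0-0 and -0.16 (p = 0.0424, adjusted p = 1) in 0-0-2. No other was called against sedentary. Mapk3, which encodes the kinase ERK1, was the single one of the 12 called in the trained groups against home cage (-0.13, limma p = 0.0453), beside 3.59% of all genes. The medians of the list against sedentary lay between -0.01 and 0.04.

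Endoplasmic reticulum chaperones, a set of genes linked to NR4A function in the hippocampus, were called lower for 8 of 10 in 14-7-2 (4.39% of all genes called). The count was 5 of 10 in 14-7-0 (3.26%), 3 of 10 in 14-0-0 (9.15%) and 3 of 10 in 0-0-2 (2.37%). None was called in 14-14-0 (4.95%) and home cage (2.3%). In 14-7-2, where the values are descriptions, the 4 of smallest p were Pdia6 (-0.44), Calr (-0.35), Hspa5 (-0.47) and Hsp90b1 (-0.27), all with adjusted p = 0.847 in limma. Against home cage the 6 trained groups together had 8 of 10 called lower, with a median of -0.25 (3.59% of all genes called). Of these 6 groups 5 had also run, so training and running are mixed in this count. In home cage against sedentary, neither of which had run, the median was 0.09. The counts without sedentary replicate 6 were 7, 4, 1 and 3 of 10 in 14-7-2, 14-7-0, 14-0-0 and 0-0-2, beside 3.58%, 3.29%, 10.3% and 2.52% of all genes.

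Markers of other cells moved with some of these groups. All 6 choroid plexus markers were called higher in 14-0-0 (9.15% of all genes called) and in 14-14-0 (4.95%), and 3 of 6 in home cage (2.3%). Without sedentary replicate 6 these counts were 6, 6 and 4, beside 10.3%, 6.97% and 3.15% of all genes. Their summed level reached 366 FPKM in sedentary, with a median of 84.8, and ran from 34.2 to 16026 in 14-0-0, with a median of 2282, 42.2 to 21745 in 14-14-0, with a median of 2104, 67.8 to 15521 in home cage, 22.8 to 10973 in 0-0-2, 27.6 to 2131 in 14-7-0 and 35.3 to 2345 in 14-7-2. In 14-7-0, 14-7-2 and 0-0-2 none of the 6 was called. All 4 dentate granule markers were above sedentary in every other group, by medians of 0.41 to 0.59, and none was called. These medians were 0.0083 to 0.16 when sedentary replicate 6 was left out. Oligodendrocyte markers were called lower for 2 of 4 in 0-0-2 (2.37% of all genes called), and for 0 of 4 without sedentary replicate 6 (2.52%). No CA1, CA3 or thalamic marker was called against sedentary in any group, and 1 of 3 neocortex markers was called higher in 14-7-0 (3.26% of all genes called). Of the 4 markers each of inhibitory neurons, astrocytes, microglia and endothelial cells, at most 2 of a list were called in any group. The share of all genes called was 2.3% to 9.15%. Without sedentary replicate 6, at most 1 gene of each of these lists was called in any group, beside 2.52% to 10.3% of all genes. Lists of 3 to 5 genes are too short for a low count to show that tissue did not differ. The part of these markers in the differences of the members was not tested.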

How the data were processed

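Dorsal hippocampal RNA from 70 mice was sequenced by the authors from poly-A libraries as single reads of 50 bases. The authors mapped reads to mm10 and deposited 1 table of FPKM for 24346 genes; per the labels their notes name Bowtie and Cuffnorm. How libraries were scaled to each other, the annotation and the strand setting are not given in the sources used here. No member overlaps another gene in GENCODE M21.

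Values were taken as log2(FPKM + 0.1). A mean of 1 FPKM or more across the 70 libraries was required (12994 genes), and each pair of groups was fitted with limma 3.58.1 (R 4.3.3; trend in the prior variance, two-sided, no covariates), which was tested on simulated data. A gene was called at an unadjusted p under 0.05, the study's criterion; adjusted p-values are Benjamini-Hochberg over all genes of a fit. Trained groups against home cage and cohort 2 against cohort 1 were contrasts in fits of all libraries. The p-values measure the spread between mice of a group. Fold changes on the log2(FPKM + 0.1) scale understate those of low genes such as Egr2.

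The members and all lists were chosen with earlier results of these data known. All 7 members are named in every comparison; of each list, at most 4 called genes per comparison by smallest p; for each member, the 3 genes of highest Pearson r. Alternatives were the pseudocount, the filter, scaling by median ratio, a joint fit, cohort or replicate number as terms, single cohorts, a regularized test after the formula of Cyber-T, no variance trend, and leaving out either library that stood apart. Chosen after seeing the data were the Egr2 fit with a minimum of 0.1 FPKM, the term for a group difference between cohorts and the values against home cage. Python 3.11.15, pandas 2.3.3 and scipy 1.17.1 were used for the other steps.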

Additional observations from a re-analysis of the deposited data

Results flagged for a closer look

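Of the 49 sets of 10 libraries (7 members in 7 groups), 6 held a library whose gap to the next was large for the range of its group, by Dixon's criterion. For normally distributed values chance gives this in about 1 set in 20. The criterion was applied to FPKM without a log, and skewed values can pass it more often. Egr4 was skewed, with a mean of 5.17 and a median of 4.13 FPKM over the 70 libraries. Of the 6, 4 were Egr4 values that lay above the rest of their group. They were 14.0 FPKM in 14-7-0 replicate 4 (next library 6.48), 11.4 FPKM in home cage replicate 8 (next 6.34), 10.5 FPKM in 0-0-2 replicate 6 (next 6.33) and 10.2 FPKM in 14-14-0 replicate 8 (next 6.15). The remaining pair were Nr4a3 values, low at 5.11 FPKM in sedentary replicate 6 (next 19.5) and high at 28.0 FPKM in 14-0-0 replicate 8 (next 21.3).

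The difference of Nr4a2 between 0-0-2 and sedentary was 1.06 higher on the log2 scale in cohort 2 than in cohort 1 (limma interaction term, p = 0.0262, adjusted p = 1 over all genes), 1 of 36 such tests with a p under 0.05. This test was chosen after the data were seen. Without sedentary replicate 6, which is in cohort 2, the same term was 0.39 (p = 0.226).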

How the results depend on the processing

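The median log2 difference of the members moved by less than the spread between libraries (0.298) in all comparisons and alternatives run. That spread is an SD of single libraries, while the medians against sedentary were only -0.14 (home cage) to -0.36 (14-7-2). A median could reach 0 in some groups without moving that far, so no stability is read from this. The number of members called against sedentary moved more. With a joint fit of all groups it was 3 in 14-0-0 (beside 11.9% of all genes) and 1 in 14-14-0 (5.65%). With the replicate number as a block it was 3 in 14-0-0 (Egr3, Egr4 and Nr4a1, beside 14.5%) and 1 in 14-14-0 (Nr4a1, beside 7.04%), and 0 in home cage, 14-7-0 and 0-0-2. Same-numbered libraries of different groups correlated above 0.1 in 96 of 210 pairs of libraries (median r 0.085), and libraries of other numbers in the same cohort in 203 of 840 (median r -0.020). Same-numbered libraries were thus above 0.1 more often than the others. The numbers were not taken as a pairing in the main fits or in the permutations of the correlations. What same-numbered libraries share is left in those tests. In cohort 1 alone the number called was 2 in 14-0-0 (7.94%), 1 in 14-14-0 (4.62%) and 1 in 0-0-2 (1.36%), and in cohort 2 alone 0 in 14-0-0 (4.7%). By the Cyber-T formula it was 3 in 14-0-0 (6.25%) and 1 each in home cage (2.26%), 14-7-0 (2.01%), 14-14-0 (4.23%) and 0-0-2 (1.47%). Without sedentary replicate 6 it was 3 in 14-0-0, 1 in 14-7-0, 3 in 14-14-0 and 2 in 0-0-2, and without 14-7-0 replicate 4 it was 1 in 14-7-0 (Egr4, beside 3.72%). The cause was not tested.

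The number of genes called among all tested ranged over the alternatives from 96 to 652 in home cage (299 as reported), 611 to 1882 in 14-0-0 (1189), 177 to 896 in 14-7-0 (424), 246 to 1082 in 14-7-2 (571), 265 to 1190 in 14-14-0 (643), 177 to 545 in 0-0-2 (308) and 153 to 849 in the trained groups against home cage (467). In 14-0-0 the highest, 1882, came with the replicate block.

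The sign changed for 22 single values. Without sedentary replicate 6, Nr4a2 stood at -0.091 in home cage, -0.27 in 14-0-0, -0.14 in 14-7-0, -0.33 in 0-0-2 and 0.072 in cohort 2 against cohort 1, and Nr4a3 at -0.096 in home cage. By the Cyber-T formula Nr4a2 stood at -0.21 in 14-0-0, -0.066 in 14-7-0 and -0.23 in 0-0-2. With a pseudocount of 1 it was -0.029 in 0-0-2. In cohort 1 alone Nr4a2 was -0.015 in home cage, -0.28 in 14-0-0, -0.042 in 14-7-0 and -0.52 in 0-0-2, Nr4a3 -0.0027 in home cage and Egr3 0.026 in 14-7-0. In cohort 2 alone Nr4a2 was 0.38 in 14-14-0, Nr4a3 0.011 in 14-7-0, 0.071 in 14-14-0 and 0.0066 in 0-0-2, Egr3 0.0046 in 14-14-0, and Egr1 0.045 in the trained groups against home cage. Read depths were not matched to the libraries here, so the counting error of low genes such as Egr2 is not given.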
